A study of Mus musculus with 34 samples.

Results

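Mouse cardiac fibroblasts given the reprogramming factors Mef2c, Gata4 and Tbx5 (MGT) were compared on day 10 and day 7 after the virus. The comparison takes 4 of the 34 samples of the series, chosen by their titles: 2 arrays of MGT cells on day 10 and 2 on day 7. The cells were CD1 mice's cardiac fibroblasts of aMHC-GFP genotype, from pups at postnatal day 1.5, and they received retrovirus that carries the 3 factors on 1 polycistronic transcript. Cells given a LacZ retrovirus, harvested on the same days with 2 arrays each, share the strain, genotype and age and serve here as context. The series also holds uninfected fibroblasts, neonatal cardiomyocytes, 4-week induced cardiomyocytes and cardiomyocytes from pluripotent stem cells. aMHC-GFP is a reporter that lights up where the promoter of the alpha myosin heavy chain gene is active. The labels name no sort by that reporter, and do not say whether the 2 arrays of a group came from separate cultures, and p-values therefore measure the spread between these samples, which may be technical.

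Direct cardiac reprogramming turns fibroblasts into cells with cardiomyocyte features without passing through a stem cell. Mef2c, Gata4 and Tbx5 are transcription factors of heart development that bind enhancers of contractile genes together. As the contractile programme rises, fibroblast genes are silenced, and innate immune signalling, cell division and chromatin regulators have each been described as gates of the process. The days compared lie after the first appearance of cardiac transcripts and before the beating cells of later weeks.

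All arrays are single-colour Agilent arrays. The day 7 and day 10 arrays of both cell types lie on 1 slide, with day 7 in its first row and day 10 in its second, so day and row cannot be told apart. Arrays of the other days lie on other slides. A step between those days and days 7 or 10 cannot be told apart from the slide. Of 59305 spots an array, 39040 and 38675 were well above background on the MGT day 7 arrays and 32768 and 35344 on the MGT day 10 arrays; the LacZ arrays ran from 29735 to 38149. Replicates correlated across genes at r = 0.997 on day 7 and r = 0.995 on day 10 in MGT cells, and 188 and 349 genes differed at least 2-fold between them. In LacZ cells the figures were r = 0.996 with 260 genes on day 7 and r = 0.989 with 902 genes on day 10. A level below is the log2 intensity of a gene's probe relative to the 75th percentile of its array, and a change is the day 10 mean minus the day 7 mean on that scale. With 2 arrays a group, a gene that missed the threshold may still have changed.

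The MGT arrays held cardiomyocyte genes far above the LacZ arrays on both days. Myh6, the alpha myosin heavy chain, read 6.64 and 6.43 on day 7 and 7.44 and 7.39 on day 10 in MGT cells, against -1.04 and -1.21 and then -2.57 and -2.38 in LacZ cells. The summed level of 11 cardiomyocyte markers was 9.81 to 9.91 on day 7 and 9.98 to 10.04 on day 10 in MGT cells, and 4.58 to 5.63 in LacZ cells over both days. Fibroblast markers stayed high in the same RNA, with a summed level of 13 markers of 10.39 to 10.42 in MGT cells and 10.65 to 10.87 in LacZ cells.

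Between day 7 and day 10 the MGT cells changed by modest amounts in many genes. In a limma fit over the 16 arrays of MGT and LacZ cells of days 3, 5, 7 and 10, 554 genes were called higher (3.19%) and 649 lower (3.74%) of 17359 tested at a Benjamini-Hochberg adjusted p under 0.05, which is 6.93% of genes in either direction. Of these, 138 rose (0.795%) and 75 fell (0.432%) at least 2-fold, which is 1.23% together. The median size of a called change was 0.50, and the median change of all genes was -0.01. At an unadjusted p under 0.05 the count was 3922. Of the called genes, 1083 were well above background on all 4 arrays, as were 15253 of all genes. Among the 138 at least 2-fold higher, 36 were above background on no day 7 array and 24 on fewer than 2 day 10 arrays. Among the 75 at least 2-fold lower, 40 were above background on no day 10 array.

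The arrays of the 2 days did not overlap in 9834 genes (56.7%), and all 1203 called genes were among them. Leaving out 1 MGT array at a time left 210 to 347 genes called higher and 245 to 325 lower, lowest without day 7 replicate 1, and 315 of the 1203 calls held in all 4 of these fits. A fit on all 34 arrays called 37 and 17, and a fit on the 4 arrays alone called 79 and 26. Of the 85 called genes named here, 80 were above background on at least 1 array of each day. Among these, 40 were called in each fit without 1 MGT array, and Cx3cr1 and Fos also under each of the 14 other settings tried.

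Most of what changed in MGT cells went the same way in LacZ cells. LacZ cells had 723 genes higher (4.16%) and 1498 lower (8.63%) on day 10, which is 12.8% of those tested. At least 2-fold changes made up 269 (1.55%) and 158 (0.91%) of them, or 2.46% together. Of the 1203 MGT calls, 1020 had the same sign in LacZ cells. The share with the same sign among all genes was not counted. Both cell types share the slide rows that go with the days, so a shared change and the row cannot be told apart. Both cell types were called in the same direction for 560 genes, which is 46.6% of the MGT calls and 25.2% of the LacZ calls. A further 42 genes were called in both but in opposite directions, 34 of them higher in MGT and lower in LacZ cells. The test of the difference, the MGT change minus the LacZ change, called 263 genes higher (1.52%) and 76 lower (0.438%), which is 1.95% in either direction. A difference of at least 2-fold was called for 107 higher (0.616%) and 42 lower (0.242%), or 0.858%. Of the 339 genes, 141 were MGT calls, 102 of them rises. In 195 of the 263, LacZ cells were called lower on day 10. The LacZ day 10 arrays moved this count: without LacZ day 10 replicate 1 the test called 695 and 823, and without replicate 2 it called 350 and 234.

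**Figure D1:**
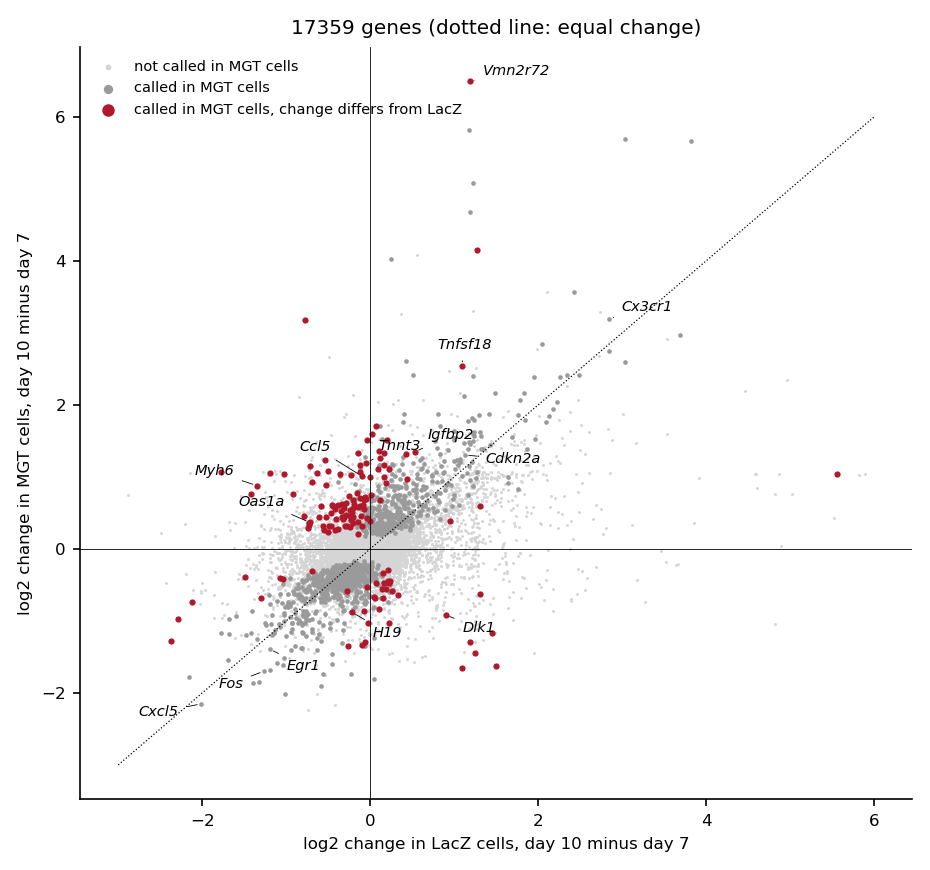
Change from day 7 to day 10 in MGT cells (vertical) against the change in LacZ cells (horizontal), both log2, for 17359 genes. Grey and red points together are the 1203 genes called in MGT cells, and the red ones are the 141 whose change differed from that in LacZ cells. Light grey points are the rest. Fos, Cxcl5 and Cx3cr1 lie near the line of equal change, while Myh6, Tnnt3 and Dlk1 lie off it.

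The delivered factors did not pass the test. Mef2c read 1.06 and 0.97 on day 7 and 0.89 and 0.77 on day 10, a change of -0.19 ± 0.58 (SE, adjusted p = 0.896 in limma). Its LacZ arrays lay between -3.21 and -2.34. Gata4 read 3.57 and 3.55 and then 3.31 and 3.25 (-0.28, adjusted p = 0.078), with LacZ cells going from 3.03 and 3.05 to 2.94 and 2.71. Tbx5 read -0.74 and -0.80 and then -1.10 and -1.07 (-0.32, adjusted p = 0.0561). Its LacZ arrays lay between -1.08 and -0.81 over both days. On day 10 the MGT mean of Tbx5, -1.08, was below the LacZ mean of -0.945. All 3 were lower on both day 10 arrays than on both day 7 arrays, where the arrays did not overlap in 56.7% of all genes. Gata4 was called in 4 of the 14 other settings. Each of the 3 has 1 probe in the fit, and whether it lies in the delivered sequence was not checked.

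More sarcomere genes rose than fell. Of 22 tested, 4 rose and 1 fell, where 3.19% of all genes rose and 3.74% fell. The median change was 0.18 with 18 of 22 above 0, against -0.01 and 46.9% for all genes. Myh6 rose by 0.88 ± 0.11 (SE, adjusted p = 0.00205 in limma). In LacZ cells it fell by 1.35, and the difference of 2.23 was itself called (adjusted p = 0.000741). Tnnc1, the calcium-binding troponin C of heart and slow muscle, went from 1.87 and 1.79 to 2.69 and 2.60 (0.81, adjusted p = 0.0162). Actn2, the alpha-actinin of the Z-disc, went from -0.07 and 0.02 to 0.92 and 1.06 (1.02, adjusted p = 0.0429). Mybpc3, the cardiac myosin-binding protein, was the member that fell, from 4.02 and 3.77 to 3.47 and 3.39 (-0.46, adjusted p = 0.0112). In none of these 4 did the arrays of the 2 days overlap, which held for all 1203 called genes and for 56.7% of all genes.

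Actc1, the cardiac alpha-actin and the first gene of the sarcomere list, was not called in MGT cells at 8.75 and 8.59 on day 7 and 8.71 and 8.65 on day 10. In LacZ cells it went from -0.03 and 0.19 to -1.41 and -1.68, and the difference of 1.64 was called (adjusted p = 0.00102 in limma). With Tnnt2, named here after its value was seen, these made 3 sarcomere genes whose change differed between the cell types, all in the same sense. Tnnt2, the cardiac troponin T, read 8.24 and 8.17 and then 8.26 and 8.20 in MGT cells and fell by 0.84 in LacZ cells, a difference of 0.85 (adjusted p = 0.032 in limma) that kept its call in 2 of the 8 fits without 1 array, those without a LacZ day 10 array (highest 0.106). Without LacZ day 10 replicate 1 there were 6, without replicate 2 there were 5, and without any other of the 8 arrays there were 2. Myh6 kept its call in each fit without 1 MGT array. Tnnc1 and Actn2 lost theirs in all 4 (highest adjusted p 0.0952 and 0.197), and Mybpc3 lost it without day 7 replicate 1 or day 10 replicate 2 (0.0695).

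The promoter of Myh6 is shown because its change differed most between MGT and LacZ cells among the sarcomere genes, and because this gene's promoter gives the reporter its name. RefSeq gives its start on the minus strand of GRCm38.p6, and the 250 bases before it are chr14:54966608-54966857. Capitals mark the M-CAT letters CATTCCT on either strand, the element known for binding TEAD factors in muscle genes.
Myh6: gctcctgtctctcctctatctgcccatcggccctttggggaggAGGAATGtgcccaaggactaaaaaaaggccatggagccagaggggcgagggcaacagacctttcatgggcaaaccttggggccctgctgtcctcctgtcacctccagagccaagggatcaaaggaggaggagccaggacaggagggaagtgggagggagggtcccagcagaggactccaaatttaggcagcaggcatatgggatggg
The match begins 207 bases before the start, on the opposite strand. The letters occur in such a window of 4.43% of 27025 promoters and of 5 of the 20 sarcomere genes with an entry, Tnnt2, Tpm1, Myl3, Myl7 and Myh6. A match in the letters is a description and no evidence of binding.

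Of 20 skeletal muscle genes, 3 rose and none fell, where 3.19% of all genes rose. Their median change was 0.04, with 11 of 20 above 0. Tnnt3, the troponin T of fast skeletal muscle, went from 1.77 and 1.92 to 3.04 and 3.04, a rise of 1.20 ± 0.08 (SE, adjusted p = 9.67e-05 in limma). Its LacZ arrays stayed between -3.66 and -3.48, and the difference of 1.25 was called (adjusted p = 0.00158). Myh8, the perinatal skeletal myosin, went from 5.21 and 5.05 to 5.86 and 5.77 (0.69, adjusted p = 0.00438), with a called difference of 0.89 (adjusted p = 0.0146) that was lost without MGT day 7 replicate 2, MGT day 10 replicate 1 or LacZ day 7 replicate 1 (highest 0.0591). Des, the muscle intermediate filament shared by all muscle types, rose by 0.27 (adjusted p = 0.0433) and by a like 0.26 in LacZ cells. Tnnt3 and Myh8 kept their calls in every fit without 1 MGT array, and Des lost its call in all 4 (highest adjusted p 0.228).

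The calls among genes of calcium handling, cardiac stress and cardiac transcription are read against 6.93% of all genes called. Of 25 calcium and ion channel genes, Kcnj5 alone was called, a subunit of the potassium channel behind the acetylcholine response of the atrium. It went from 3.06 and 2.98 to 2.39 and 2.23 (-0.71, adjusted p = 0.0315 in limma), and in LacZ cells it fell by 0.82. Pln, the inhibitor of the calcium pump, read -4.25 and -4.23 and then -2.63 and -2.83. Its change of 1.51 ± 0.59 (SE) was not called (adjusted p = 0.159), and the LacZ change was 1.27. The call of Pln was made in 3 of the 14 other settings, among them the fit on the 4 arrays alone, and in no fit without 1 MGT array. Among 15 natriuretic and stress genes Des was the one call. Nppa, atrial natriuretic peptide, read 1.90 and 2.03 and then 1.90 and 1.59, and Nppb, its ventricular relative, -2.08 and -2.17 and then -1.66 and -1.92 (adjusted p = 0.317 and 0.175).

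Of 21 cardiac transcription factor genes, 1 rose and 1 fell, with a median of -0.18. Hey2, a repressor of the compact ventricular wall, went from -5.38 and -5.33 to -4.35 and -4.18 (1.09, adjusted p = 0.0105 in limma). Tbx2, a repressor of chamber genes, went from 0.03 and -0.14 to -0.33 and -0.41 (-0.32, adjusted p = 0.0408), and it fell in LacZ cells by 0.57. Hey2 stayed well below its LacZ arrays, which lay between -3.75 and -2.87. Leaving out day 7 replicate 1 or day 10 replicate 2 ended the call of Hey2 (0.0722), leaving out any MGT array ended that of Kcnj5 (highest adjusted p 0.164), and Tbx2 kept its call only without day 7 replicate 2 (highest 0.253).

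**Figure D2:**
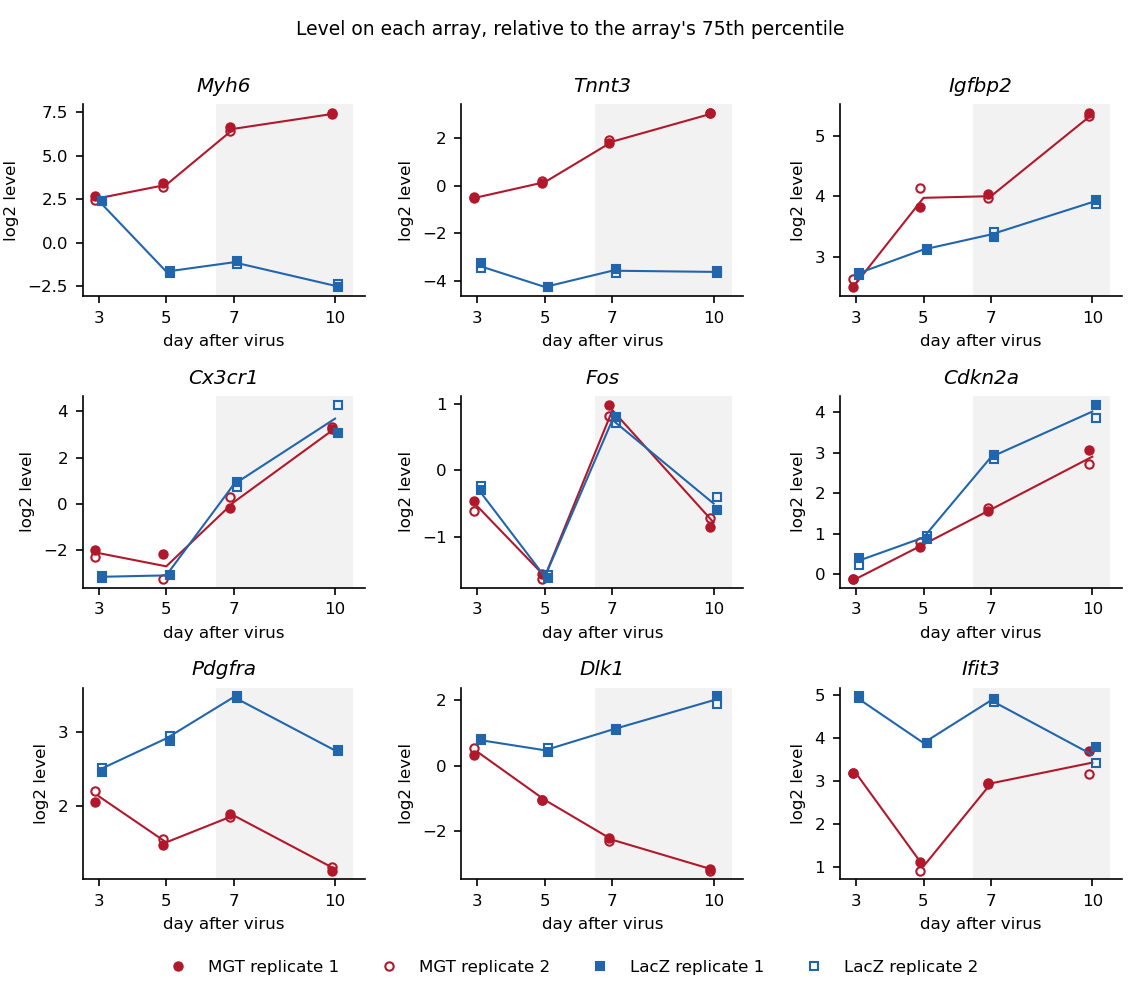
Log2 level of 9 genes relative to the 75th percentile of each array on days 3, 5, 7 and 10, with each array as a point and lines through group means; the shaded span holds the days compared. Days 3 and 5 lie on another slide than days 7 and 10. Over the shaded span Myh6 and Tnnt3 rise in MGT cells and not in LacZ cells, and Dlk1 moves in opposite directions. Fos is highest on day 7 among the days drawn in both, and the Ifit3 arrays of the cell types come together on day 10.

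Immediate early genes, which serum and growth factors induce within minutes, gave falls and no rise in either cell type. Of 17 tested, 5 fell in MGT cells, where 3.74% of all genes did, with a median of -0.15 and 3 above 0. In LacZ cells 8 fell, where 8.63% of all genes did. Fos, a subunit of the AP-1 factor, went from 0.99 and 0.83 to -0.86 and -0.72, a change of -1.70 ± 0.09 (SE, adjusted p = 2.15e-05 in limma). Egr1, a zinc-finger factor of the same response, went from 5.20 and 4.91 to 3.74 and 3.59 (-1.39, adjusted p = 7.18e-05). LacZ cells fell alongside, by 1.26 for Fos and by 1.20 for Egr1, and neither difference was called (adjusted p = 0.143 and 0.558). On day 5 the MGT arrays, which lie on another slide, read -1.56 and -1.64 for Fos and 2.57 and 2.66 for Egr1. Uninfected fibroblasts of day 0, also on another slide, read 1.10 and 0.99 for Fos and 5.08 and 4.99 for Egr1. Whether day 7 was a high point therefore cannot be told apart from the slide. Zfp36, which destabilises cytokine messages, fell by 0.51 (adjusted p = 0.0331) but was not called in any fit without 1 MGT array (highest 0.197), while Fos and Egr1 were called in all 4.

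Cell cycle genes lay mostly below 0 in MGT cells, and 3 of them passed the test. Of 31 tested, 28 lay below 0 with a median of -0.21, and in LacZ cells the median was 0.19. The calls were 1 rise and 2 falls, where 6.93% of all genes were called, and no member's change was called different between the cell types. That count rested on LacZ day 10 replicate 1: without it 24 of the 31 differences were called, all lower in MGT cells, and without any other of the 8 arrays 0 or 1. Mki67, Top2a and Cdk1, the first genes of the list, changed by -0.13, -0.21 and -0.12 (adjusted p = 0.801, 0.627 and 0.365 in limma). Cdc20, an activator of the anaphase-promoting complex, fell by 0.34, and Tyms, which makes thymidylate for DNA synthesis, by 0.25. Ccnd1, cyclin D1 of the early G1 phase, moved the other way, from 2.32 and 2.39 to 3.38 and 3.45 (1.06, adjusted p = 0.000124), and it rose by 1.15 in LacZ cells. Ccnd1 was called in each fit without 1 MGT array, Cdc20 in none (highest 0.229) and Tyms only without day 10 replicate 2 (highest 0.237).

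Inhibitors of the cell cycle split between rises and falls. Of 16 genes of CDK inhibition and senescence, 4 rose and 2 fell, where 3.19% of all genes rose and 3.74% fell. Cdkn2a, which encodes p16 and Arf, went from 1.57 and 1.63 to 3.07 and 2.73 (1.30, adjusted p = 0.000518 in limma), and its arrays had read -0.11 and -0.12 on day 3 and 0.68 and 0.79 on day 5. Its neighbour in the genome, Cdkn2b, encodes p15 and went from 2.51 and 2.67 to 3.30 and 3.27 (0.69, adjusted p = 0.00612). Cdkn1c, the imprinted inhibitor p57, went from -0.04 and -0.00 to -0.80 and -1.07 (-0.91, adjusted p = 0.00209), and Btg2, an antiproliferative target of p53, fell by 0.56. The LacZ changes had the same sign for each of the 4 genes named, and none of the differences was called. Without day 7 replicate 1 the call of Cdkn2b ended (0.0561).

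Of 13 fibroblast markers, 3 fell and none rose, where 3.74% of all genes fell. Their median change was -0.02 with 6 above 0. Pdgfra, the receptor that marks cardiac fibroblasts, went from 1.90 and 1.86 to 1.13 and 1.18, a change of -0.72 ± 0.06 (SE, adjusted p = 0.000178 in limma). Lum, the keratan sulfate proteoglycan lumican, went from 2.90 and 3.18 to 2.23 and 2.05 (-0.91, adjusted p = 0.00188). Fap, the protease of activated fibroblasts, went from -0.90 and -0.90 to -1.45 and -1.55 (-0.60, adjusted p = 0.00622). All 3 also fell in LacZ cells, by 0.72, by 0.80 and by 0.77, and the LacZ levels on day 10 were still above the MGT levels on day 7. Col1a1, the first fibroblast marker, read 7.67 and 7.55 and then 7.86 and 7.63, with overlapping arrays. In bulk RNA such as this, fewer cells of a type and less RNA per cell cannot be told apart.

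Of 23 collagen and collagen-processing genes, 6 rose and 1 fell. Col15a1, a basement membrane collagen of muscle and vessels, went from -3.82 and -4.10 to -2.57 and -2.61 (1.37, adjusted p = 0.00999 in limma). Plod2, a lysyl hydroxylase that prepares collagen cross-links, rose by 0.55 (adjusted p = 0.0124) and Loxl2, a lysyl oxidase, by 0.50 (adjusted p = 0.0491, with a change above 0 in 3 of its 4 probes). Col18a1, the source of endostatin, fell by 0.36. The LacZ changes were 0.92, -0.07, 0.11 and -0.17 in the order named. Among 28 proteoglycans and matricellular genes, 5 rose and 3 fell, read against the same shares. In LacZ cells 4 of them rose and 1 fell, and that fit called no difference between the cell types. Eln, the elastin precursor, went from 3.11 and 2.81 to 3.88 and 4.14 (1.04, adjusted p = 0.0119), and the small leucine-rich proteoglycans Aspn and Omd rose by 0.87 and 0.80. Lum, Vcan and Ccn1 were the falls, at -0.91, -0.49 and -0.35. LacZ cells changed by 0.26, 1.22 and 0.12 for Eln, Aspn and Omd, and by -0.80, -0.20 and -0.20 for the falls.

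Of 23 matrix proteases and inhibitors, 2 rose, where 3.19% of all genes did. Timp3, an inhibitor bound to the matrix, was among them and rose by 0.49 (adjusted p = 0.0228 in limma). Its LacZ change was 0.32. Pdgfra, Lum, Fap, Vcan and Aspn kept their calls in every fit without 1 MGT array. Loxl2 was called in 1 of the 4, without day 10 replicate 2 (highest adjusted p 0.226), and Timp3 in 1, without day 10 replicate 1 (0.147). Col18a1 was called in none (0.209). Col15a1 and Omd lost theirs without day 7 replicate 2 or day 10 replicate 1 (highest 0.0629 and 0.0548), and Eln without replicate 2 of either day (0.0746). Plod2 and Ccn1 lost theirs without replicate 1 of either day (0.098 and 0.128).

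Of 15 contractile genes of smooth muscle and myofibroblasts, 6 rose and 1 fell in MGT cells, where 3.19% of all genes rose and 3.74% fell. Their median change was 0.11. In LacZ cells 6 rose, where 4.16% of all genes did. Cnn1, the actin-binding calponin of smooth muscle, went from 3.40 and 3.36 to 4.07 and 4.04 (0.67, adjusted p = 0.00209 in limma). Myh11, smooth muscle myosin, went from -1.74 and -1.95 to -0.92 and -1.002 (0.89, adjusted p = 0.00397). The LacZ rises were 0.80 and 0.96. Lmod1, a smooth muscle leiomodin, rose by 0.60 (adjusted p = 0.0413) but in no fit without 1 MGT array (highest 0.188). Tagln, an early smooth muscle marker, was not called at 0.23 (adjusted p = 0.439).

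Genes of macrophages and other myeloid cells gave some of the largest rises. Cx3cr1, the fractalkine receptor of resident macrophages and microglia, went from -0.17 and 0.31 to 3.22 and 3.30, a rise of 3.19 ± 0.40 (SE, adjusted p = 0.0018 in limma). Sirpb1a, a signal-regulatory receptor of myeloid cells, went from -3.29 and -2.12 to 0.10 and 0.18 (2.85, adjusted p = 0.00184). Tnfsf18, the ligand of GITR, is not among the macrophage markers listed, and uninfected day 0 fibroblasts, on another slide, read 2.00 and 1.94. In MGT cells it went from -2.06 and -1.47 to 0.71 and 0.84 (2.54, adjusted p = 0.000162). Its rise in LacZ cells was 1.09, and the difference of 1.45 was called (adjusted p = 0.0352), though in only 3 of the 8 fits without 1 of the arrays of these days: not without MGT day 7 replicate 1, either MGT day 10 array or either LacZ day 7 array (highest 0.0994). Fcrls, a scavenger receptor of microglia, rose by 2.59 (adjusted p = 0.0484). The LacZ rises of Cx3cr1, Sirpb1a and Fcrls were 2.85, 2.04 and 3.04, and none of those differences was called.

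Of 15 macrophage markers 2 passed the test, Cx3cr1 and Aif1, where 6.93% of all genes did. All 15 lay above 0 in MGT cells, with a median of 0.76. Their summed level was 6.78 to 7.12 on day 7 and 7.43 to 7.50 on day 10, and in LacZ cells 6.73 to 6.91 and then 7.17 to 8.21. Adgre1, Cd68 and Csf1r, the first markers of the list, changed by 0.69, 0.46 and 0.89 (adjusted p = 0.245, 0.702 and 0.146 in limma). Aif1, a calcium-binding protein of activated macrophages, went from 0.88 and 1.58 to 2.35 and 2.33 (1.11, adjusted p = 0.0484). No macrophage marker's change was called different between MGT and LacZ cells, though 5 were called lower in MGT cells without LacZ day 10 replicate 1. The part of macrophage number in the rises of immune genes was not tested. Cx3cr1, Sirpb1a and Tnfsf18 were called in each fit without 1 MGT array, Fcrls in none (highest adjusted p 0.251), and Aif1 only without day 7 replicate 2 (highest 0.294).

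Secreted inflammatory factors changed in both directions. Of 25 chemokine and cytokine genes, 4 rose and 2 fell, where 3.19% of all genes rose and 3.74% fell. Cxcl14, a chemokine of tissue homeostasis, went from -2.61 and -2.12 to -0.08 and -0.40 (2.12, adjusted p = 0.000266 in limma). It rose by 1.11 in LacZ cells, and the difference was not called. Ccl5, which draws T cells and monocytes, went from -0.67 and -0.35 to 0.43 and 0.58 (1.01, adjusted p = 0.00137), changed by -0.10 in LacZ cells, and its difference of 1.12 was called (adjusted p = 0.00979). The falls were Cxcl5 and Cxcl1, both chemokines that draw neutrophils. Cxcl5 went from -0.61 and 0.23 to -2.43 and -2.26 (-2.15, adjusted p = 0.00119) and Cxcl1 from 1.17 and 1.48 to 0.14 and 0.40 (-1.06, adjusted p = 0.00454), with LacZ falls of -2.01 and -1.24. Complement genes gave 4 falls and no rise among 15, where 3.74% of all genes fell. Their median change was 0.03, with 8 of 15 above 0. In LacZ cells 8 of them fell, where 8.63% of all genes did, with a median of -0.40. C1ra, C1s1 and C3 changed by -0.63, -0.59 and -0.57 in MGT cells. These are the proteases that start the classical pathway and the component on which all pathways meet. All genes named here kept their calls in every fit without 1 MGT array.

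The interferon response changed differently in MGT and LacZ cells. Interferon-stimulated genes encode antiviral sensors and effectors, and type I interferon switches them on together. Of 28 tested, 27 lay above 0 in MGT cells with a median of 0.33, and 3 rose, where 3.19% of all genes did. In LacZ cells 22 of the 28 fell, where 8.63% of all genes did, with a median of -0.78. The difference was called for 20 of the 28, all higher in MGT cells, with a median of 1.09, where the test called 1.52% of all genes higher and the median of all genes was 0.01. The pattern was already known from these data when the list was written.

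Oas1a, a synthase of the RNase L activator, went from 3.78 and 3.84 to 4.21 and 4.14 in MGT cells and from 4.80 and 4.95 to 4.03 and 4.28 in LacZ cells. Its changes of 0.37 and -0.72 differed by 1.09 ± 0.13 (SE, adjusted p = 0.00281 in limma). Xaf1, a proapoptotic interferon target, and Dhx58, a regulator of RNA sensing, gave like differences of 1.07 and 1.09 (adjusted p = 0.00184 and 0.0031). The MGT rises of the 3 were small, and in the MGT comparison itself Oas1a and Dhx58 lost their calls in all 4 fits without 1 MGT array (highest adjusted p 0.211 and 0.223). Xaf1 kept it only without day 10 replicate 2 (highest 0.182).

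The first genes of the list, the IFIT translation inhibitors, were not called in MGT cells. Ifit1 read 3.10 and 3.10 on day 7 and 3.63 and 3.12 on day 10 in MGT cells, against 4.28 and 4.33 and then 3.20 and 2.89 in LacZ cells. Ifit3 read 2.92 and 2.96 and then 3.69 and 3.16, against 4.90 and 4.85 and then 3.79 and 3.42. Ifit2 read 0.44 and 0.43 and then 0.80 and 0.23, against 1.02 and 0.96 and then 0.23 and 0.18. On day 7 the LacZ arrays stood above the MGT arrays for all 3, and by day 10 the LacZ arrays had come down by 1.26, 1.27 and 0.79 for Ifit1, Ifit3 and Ifit2. The differences of Ifit1 (1.54) and Ifit3 (1.75) were called (adjusted p = 0.00565 and 0.00423 in limma) and that of Ifit2 (0.87) was not (0.0667). Day 10 replicate 1 of the MGT cells was the higher of the pair for each IFIT gene. Without it the Ifit2 change turned to -0.21, and without day 10 replicate 2 Ifit2 and Ifit3 were called higher.

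Leaving out 1 of the 8 arrays of these days at a time left 13 to 22 of the 28 differences called. Without MGT day 7 replicate 2 there were 13. The fit on all 34 arrays called none of the 28, where it called 2 genes higher in all, and a fit on the 22 arrays of the whole time course called 12. The median difference lay between 0.94 and 1.21 across all settings. Among the 8 arrays of these days, LacZ day 10 replicate 2 had the highest summed level of macrophage markers, 8.21. The part of macrophage number in the interferon difference was not tested.

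**Figure D3:**
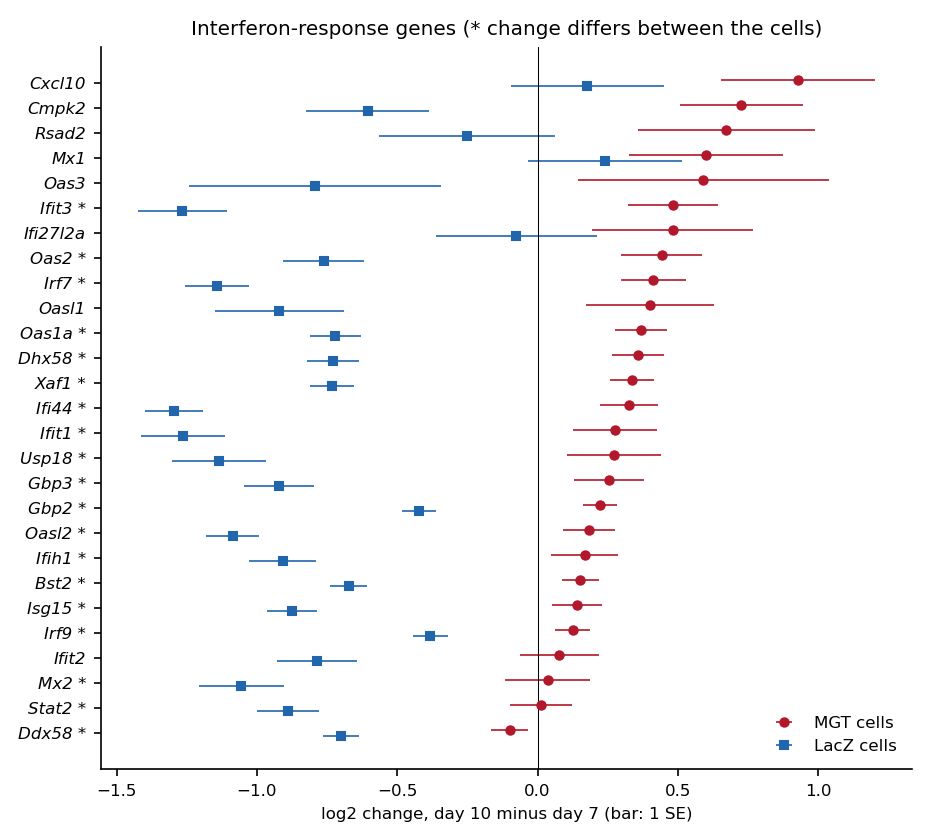
Log2 change from day 7 to day 10 of 27 of the 28 interferon-response genes in MGT cells (circles) and LacZ cells (squares), with bars of 1 SE from the fit and an asterisk where the difference was called. The MGT points lie above 0 in 26 of the 27 genes drawn, and 21 of the LacZ changes were called lower.

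The promoters of Oas1a, Ifit1 and Ifit3 are shown because their changes differed between the cell types and each holds the letters searched. Capitals mark the core of the interferon-stimulated response element, GAAA and a further GAAA with any 2 bases between them, on either strand, and overlapping matches run together. The windows are the 250 bases before the RefSeq start on GRCm38.p6, chr5:120907526-120907775 on the minus strand for Oas1a and chr19:34640639-34640888 and chr19:34583279-34583528 on the plus strand for Ifit1 and Ifit3.
Oas1a: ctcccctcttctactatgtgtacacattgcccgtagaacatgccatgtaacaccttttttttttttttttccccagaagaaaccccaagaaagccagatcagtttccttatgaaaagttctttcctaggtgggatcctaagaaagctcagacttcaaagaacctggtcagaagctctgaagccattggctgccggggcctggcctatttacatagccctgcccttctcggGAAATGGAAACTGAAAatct
Ifit1: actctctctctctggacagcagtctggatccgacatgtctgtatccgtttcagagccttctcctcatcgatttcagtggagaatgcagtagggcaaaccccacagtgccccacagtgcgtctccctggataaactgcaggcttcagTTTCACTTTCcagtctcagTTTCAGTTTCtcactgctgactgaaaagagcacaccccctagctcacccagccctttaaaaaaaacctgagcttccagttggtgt
Ifit3: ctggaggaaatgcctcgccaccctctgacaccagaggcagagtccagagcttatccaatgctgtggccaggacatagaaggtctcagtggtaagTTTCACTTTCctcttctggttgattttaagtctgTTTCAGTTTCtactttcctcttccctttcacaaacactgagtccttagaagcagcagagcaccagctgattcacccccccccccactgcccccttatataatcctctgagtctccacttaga
Each of the 3 windows holds 2 matches. In Oas1a they overlap and begin 20 and 14 bases before the start, and in Ifit1 and Ifit3 they lie further out, at 104 and 85 and at 156 and 122 bases. Of the 21 list members with an entry, 11 held the letters, against 3.04% of 27025 promoters. The share describes the letters in these windows and not which factor was bound.

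Genes of developmental signalling changed in both directions. Of 14 Notch pathway genes, 3 rose and 4 fell, where 3.19% of all genes rose and 3.74% fell. Notch1, a receptor, went from 0.60 and 0.40 to -0.55 and -0.53 (-1.04, adjusted p = 0.000238 in limma), and by -1.08 in LacZ cells. Heyl, a Notch target repressor, went from -0.80 and -1.28 to 0.26 and 0.14 (1.24, adjusted p = 0.00085). Mfng, a glycosyltransferase that tunes Notch receptors, rose by 1.62 but was called in no fit without 1 MGT array (highest adjusted p 0.245). The LacZ changes of Heyl and Mfng were 0.59 and 1.31, and neither difference was called. Dlk1, a non-canonical ligand that is also imprinted, was called in opposite directions in the cell types. It went from -2.21 and -2.30 to -3.15 and -3.20 in MGT cells and from 1.11 and 1.12 to 2.12 and 1.90 in LacZ cells. The changes of -0.92 and 0.90 differed by -1.82 ± 0.12 (SE, adjusted p = 0.000741).

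Imprinted growth genes as a list had the lowest median of the 29 pathway lists, -0.35. Among the 14 there were 4 falls and no rise, where 3.74% of all genes fell. H19, the imprinted RNA next to Igf2, went from 1.26 and 1.24 to 0.42 and 0.32 (-0.88, adjusted p = 0.000124 in limma) with a change below 0 in 6 of its 7 probes; the LacZ change was -0.22, a called difference of -0.66 (adjusted p = 0.00719). In the IGF axis 2 of 13 genes rose and 1 fell, where 6.93% of all genes were called. Igfbp2, a binding protein that carries IGFs, went from 4.03 and 3.98 to 5.37 and 5.33, a rise of 1.35 ± 0.09 (adjusted p = 7.32e-05). The LacZ rise was 0.53 and the difference of 0.82 was called (adjusted p = 0.0118). Pappa, a protease that frees IGF from its binding proteins, rose by 0.50, and Igfbp5 fell by 0.35. Dlk1, H19, Igfbp2, Notch1 and Heyl were called in each fit without 1 MGT array, Pappa in none (highest 0.078), and Igfbp5 neither without day 7 replicate 1 nor without day 10 replicate 1 (0.105).

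Of 25 Wnt pathway genes, 2 rose and 2 fell, where 6.93% of all genes were called. Sfrp4, a secreted antagonist, went from -4.35 and -4.44 to -3.19 and -3.23 (1.18, adjusted p = 0.000261 in limma), and its LacZ rise was 0.65. Wnt5b, a non-canonical ligand, went from 2.50 and 2.52 to 1.86 and 1.79 (-0.68, adjusted p = 0.00162), while its LacZ arrays stayed between -0.94 and -0.74, and the difference of -0.75 was called (adjusted p = 0.0126). Of 25 TGF-beta and BMP genes, 2 rose and 1 fell, read against the same share. Sfrp4 and Wnt5b were called in each fit without 1 MGT array.

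Of 23 genes of glycolysis and the hypoxia response, 4 rose and none fell, where 3.19% of all genes rose. Their median change was 0.16, with 21 above 0. Slc16a3, the lactate exporter, went from 2.06 and 2.42 to 3.18 and 3.38 (1.04, adjusted p = 0.0155 in limma), and the enzymes Pfkl and Pgk1 rose by 0.48 and 0.47. Of 26 respiratory chain genes 1 was called, where 6.93% of all genes were. That gene was Cox7a1, the muscle isoform of a cytochrome oxidase subunit. It went from 0.51 and 0.69 to 1.81 and 1.53 (1.07, adjusted p = 0.00357), and LacZ cells rose by 0.88. Of 26 fatty acid oxidation genes 1 was called, read against the same share, Fabp4, a lipid carrier of adipocytes and capillaries, at -0.71. Cholesterol synthesis gave 3 falls among 20, where 3.74% of all genes fell, Mvd, Fdft1 and Cyp51 at -0.37, -0.31 and -0.29. In LacZ cells it gave 11 falls, where 8.63% of all genes fell.

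Of 20 genes of the unfolded protein and amino acid stress responses, 6 rose and none fell, where 3.19% of all genes rose. Their median change was 0.30. Trib3, a pseudokinase induced by ATF4, went from 3.98 and 4.13 to 4.90 and 4.95 (0.87, adjusted p = 0.000858 in limma), and the arginine carrier Slc7a3 and the mitochondrial folate enzyme Mthfd2 rose by 0.66 and 0.63. In LacZ cells 6 of the 20 rose too, where 4.16% of all genes did. Trib3, Slc7a3, Mthfd2 and Cox7a1 kept their calls in every fit without 1 MGT array. Pfkl lost it in all 4 (highest adjusted p 0.177). Slc16a3 and Pgk1 kept it only without day 7 replicate 2 (0.121 and 0.129), the 3 cholesterol genes only without day 7 replicate 1 (0.212, 0.187 and 0.2), and Fabp4 lost it without either day 10 array (0.116).

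Of 20 polycomb and DNA methylation genes, 1 rose and 3 fell, where 6.93% of all genes were called. Bmi1, a polycomb subunit described as a barrier to this reprogramming, went from 2.87 and 2.87 to 3.16 and 3.04 (0.22, adjusted p = 0.0307 in limma). Ezh2, the polycomb methyltransferase, went from 0.80 and 0.62 to 0.34 and 0.27 (-0.40, adjusted p = 0.0259), and the DNA methyltransferase Dnmt3b fell by 0.35. The LacZ changes of Bmi1 and Ezh2 were 0.03 and 0.01, and neither difference was called; of the 20 differences 4 were called without LacZ day 10 replicate 1 and none in the fit with all 16 arrays. Each of the 3 was called in 1 of the 4 fits without 1 MGT array (highest 0.18, 0.181 and 0.136): Bmi1 without day 10 replicate 2, the other two without day 7 replicate 2.

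**Figure D4:**
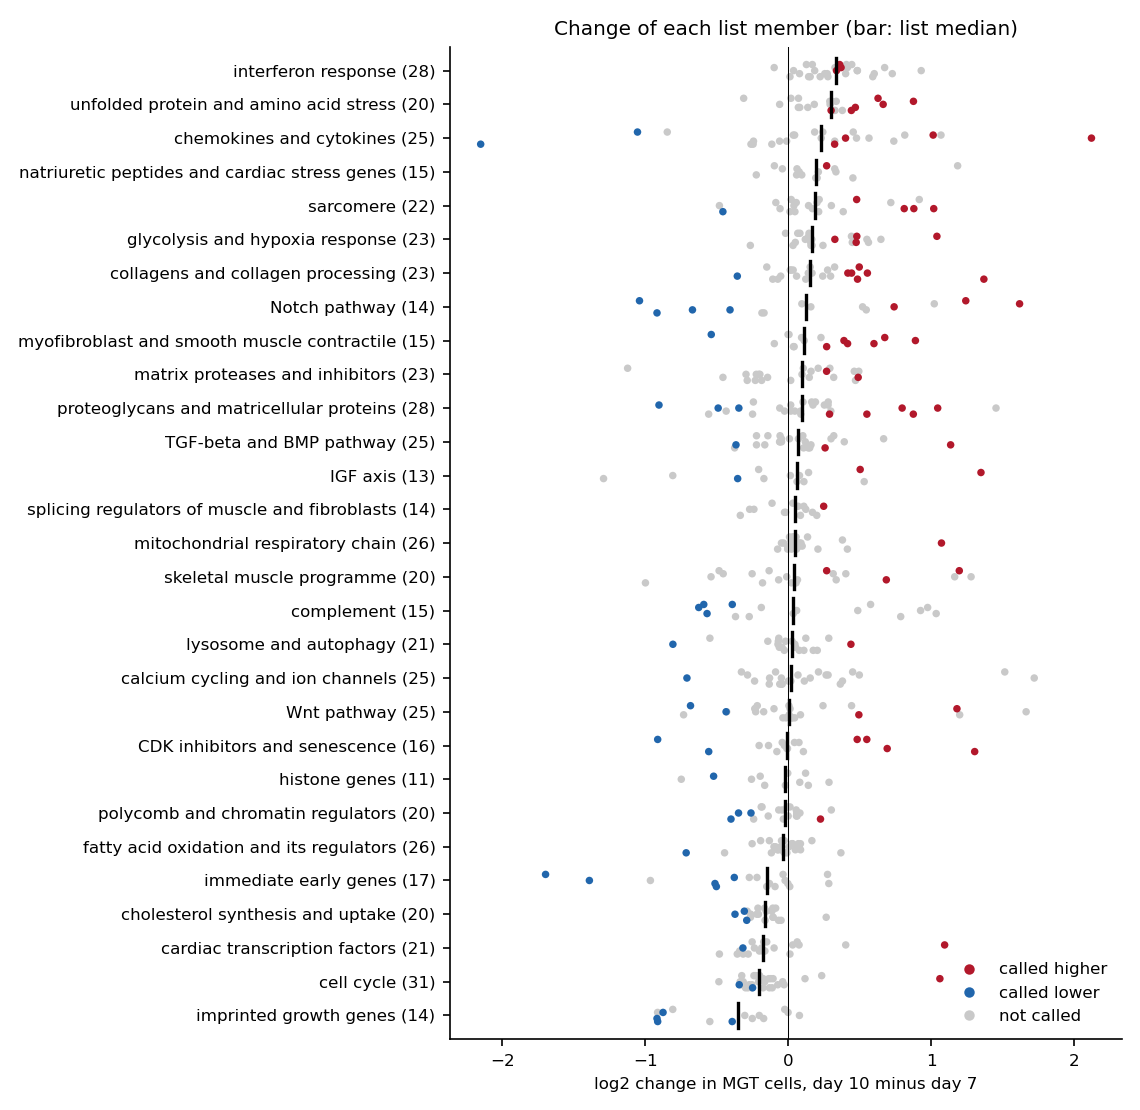
Log2 change in MGT cells from day 7 to day 10 for every tested member of 29 pathway lists, ordered by list median (black bar), with the number tested in parentheses. Red members were called higher and blue lower; the medians run from -0.35 for imprinted growth genes to 0.33 for the interferon response.

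Markers of other cell types gave calls in 6 of 10 lists, read against 6.93% of all genes called. Endothelial markers gave 1 fall among 14: Robo4, an endothelial guidance receptor, went from -4.55 and -4.21 to values not well above background on both day 10 arrays (adjusted p = 0.00453 in limma), at least 1.42-fold lower. Mast cell markers gave 1 fall among 4, Kit, the stem cell factor receptor, at -0.87, and granulocyte markers 1 among 9, Camp, an antimicrobial peptide, at -0.84. All 3 fell in LacZ cells too and kept their calls in every fit without 1 MGT array. Epicardial (11 tested), antigen-presenting (7), lymphocyte (4) and erythroid (3) markers gave no call. Pericyte and smooth muscle markers gave 3 rises and 1 fall among 10, Myh11 and Des among the rises, Schwann markers 1 rise among 8, and adipocyte markers 1 fall among 3, Fabp4.

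A few dim genes gave the largest fitted changes. Vmn2r72, a receptor of the vomeronasal organ, was not well above background on either day 7 array and read -1.36 and -2.03 on day 10, at least 19.3-fold higher. It was not above background on the LacZ arrays of either day, and no p is given for it, since of the 4 groups it was measured only where it was high. On day 14 its MGT arrays were back at -7.98 and -8.36. The odorant receptor Olfr1076 was at least 10.5-fold higher, though its day 10 arrays lay apart at -3.90 and -1.25, and the antisense RNA Ctcflos at least 5.92-fold higher. In LacZ cells each of the 2 was above background on no day 7 array and on 1 day 10 array. Olfr1076 read -2.68 on LacZ day 10 replicate 1. Of the 4 groups, MGT day 10 alone had both arrays above background for each of them. No p is therefore given for the 2, and a difference between the cell types has no size here. Sntg1, a syntrophin of neurons, was at least 7.25-fold higher. Cdhr3, a cadherin of ciliated cells, and Ambp, a plasma protein precursor, rose by 2.97 and 2.75, and by 3.69 and 2.84 in LacZ cells. Gabbr2, a GABA receptor subunit, fell by 1.87 (adjusted p = 0.000797 in limma) and was above background on 1 of 2 day 10 arrays. It fell by 1.39 in LacZ cells, and the difference was not called. Ambp was called in no fit without 1 MGT array (highest 0.166), and Cdhr3 only without day 7 replicate 2 (0.13).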

How the data were processed

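Agilent single-colour arrays were read from the deposited scanner files. Their probe intensity had been background-subtracted, and the file headers name Feature Extraction version 10.7.3.1. The authors' log2 values in the deposited series table served as an alternative; limma is named in the submitters' processing notes, with scale and centring not stated. Control and outlier spots were left out, spots of 1 probe averaged, and log2 intensity was taken relative to the 75th percentile of each array. Probes were named by accession (26156), symbol (3135) or older symbol (911) against RefSeq, and 25479 stayed unnamed. Probes that reached the well-above-background flag on 2 of 2 arrays in at least 1 of the 8 fitted groups entered the fit; the brightest stood for its gene, giving 17359 genes, 68 of them with a missing value that the fit dropped. limma 3.58.1 (R 4.3.3; lmFit and eBayes, Benjamini-Hochberg) fitted 8 groups of 2 arrays; Python 3.11.15 made tables and figures. The code was tested on simulated data.

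The samples, the 42 gene lists and the tests were chosen with earlier results of these data known. Named are Mef2c, Gata4 and Tbx5, the 12 highest and 12 lowest changes with an established symbol and both arrays of the higher side above background, the 3 largest rises and falls in each list, and uncalled genes that head a list; fewer were printed, and some genes the rule gave are not reported here. An at-least fold sets the measured side against the lowest signal well above background. Other normalizations, filters, array sets, blocks and left-out arrays were tried. Array number limits the precision.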

Additional observations from a re-analysis of the deposited data

Results flagged for a closer look

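For 16 of the named genes the change from day 7 to day 10 differed between MGT and LacZ cells by the interaction term of the limma fit, given here as the MGT change minus the LacZ change on the log2 scale. Among muscle genes it was 2.23 for Myh6, 1.64 for Actc1, 1.25 for Tnnt3, 0.89 for Myh8 and 0.85 for Tnnt2. Among immune genes it was 1.75 for Ifit3, 1.54 for Ifit1, 1.45 for Tnfsf18, 1.12 for Ccl5, 1.09 for Oas1a, 1.09 for Dhx58 and 1.07 for Xaf1. The signalling genes stood at 0.82 for Igfbp2, -0.66 for H19, -0.75 for Wnt5b and -1.82 for Dlk1. The dim genes Vmn2r72 and Sntg1 also passed that test, but no array was above background in 3 and 2 of the 4 groups, so the differences have no size here. In the 8 fits that each left out 1 array of these days, 13 of the 16 were called every time, and Myh8, Tnnt2 and Tnfsf18 were not.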

How the results depend on the processing

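The counts moved with the arrays in the fit and with the filter on dim probes. For MGT cells (554 higher, 649 lower), all 34 arrays gave 37 and 17, the 4 arrays alone 79 and 26, the 22 arrays of the time course 436 and 406, no filter on dim probes 494 and 431, and a 2-fold minimum 138 and 75; leaving out an array gave 210 to 347 higher and 245 to 325 lower. For LacZ cells (723 and 1498), all 34 arrays gave 81 and 56, a 2-fold minimum 269 and 158, and no filter 2818 higher; leaving out an array gave 348 to 1434 higher and 755 to 2048 lower. For the difference (263 and 76), all 34 arrays gave 2 and 9, a 2-fold minimum 107 and 42, no filter 41 lower and the 22 arrays 45 lower; leaving out an array gave 144 to 695 higher and 35 to 823 lower. Without the filter the share of higher calls was 64.2% in LacZ cells against 32.6%. The cause of these shifts was not tested. Actc1, at 0.01, turned to -0.011 under quantile normalization, -1.8e-05 with normexp and quantile normalization together and -0.0040 in the authors' values, and leaving out an array gave -0.065 to 0.086, below 0 without MGT day 7 replicate 2 or day 10 replicate 1. Leaving out an array gave -0.018 to 0.058 for Tnnt2, below 0 without those same arrays, and -0.21 to 0.36 for Ifit2, below 0 without MGT day 10 replicate 1. The replicate block gave 525 higher and 599 lower in MGT cells and 246 and 65 for the difference. For pairing, the deviation of replicate 1 from its group mean was compared across genes between days 7 and 10. These deviations correlated at 0.095 in MGT and 0.067 in LacZ cells, so the replicate numbers were not taken as pairs. Slide as a random block changed no count.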
